A study of Mus musculus with 14 samples.

Results

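The heat shock chaperones described here are 10 genes, Hspa1a, Hspa1b, Hspb1, Dnajb1, Hsph1, Hspa8, Hsp90aa1, Bag3, Cryab and Hspb8, taken by symbol from the 46904 genes of the expression table, and all 10 were found and passed the filter on low values. RNA was sequenced from whole brain hemispheres of male mice aged 12 weeks, 48 h after transient occlusion of the middle cerebral artery (MCAO) for 20 min, a mild stroke model in which a filament closes the artery and is then withdrawn to allow reperfusion. Of the 14 libraries, 3 came from the contralateral (CL) and 3 from the ischemic (MCAO) hemispheres of wild-type mice (Cort+/+), and 3 CL and 5 MCAO libraries came from mice that lack the neuropeptide cortistatin (Cort-/-), both on a C57BL/6J background. The CL hemisphere is thus the uninjured side of operated animals, which had all received isoflurane and meloxicam, so no library stands for an unoperated brain. The methods describe 5 MCAO replicates, while for Cort+/+ mice the 3 MCAO libraries numbered 2, 3 and 4 were analysed here. They also state that replicates were kept by how clearly they grouped where variability was large, so the Cort+/+ MCAO group may be a selected subset. A hemisphere holds both injured and spared tissue, and fewer cells of a type and less RNA per cell cannot be told apart in it.

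Heat shock proteins bind unfolded or misfolded proteins and keep them from aggregating until they are refolded or degraded. The HSP70 proteins (Hspa genes) do so in cycles of ATP hydrolysis that J-domain proteins such as Dnajb1 start and that nucleotide exchange factors such as Hsph1 and Bag3 end, HSP90 (Hsp90aa1) acts later on near-native client proteins, and the small heat shock proteins (Hspb1, Cryab, Hspb8) hold unfolded proteins without ATP. Many of these genes are switched on by the transcription factor HSF1 in stressed cells, and induction of HSP70 and HSP27 (Hspb1) in neurons, glia and vessels is a classical response of the brain to ischemia.

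Values are RPKM, in which reads are divided by the length of the gene and the size of the library, and fold changes are differences of log2(RPKM + 0.1) from a limma fit over all genes, with Benjamini-Hochberg adjustment over the 46102 genes tested and a threshold of 0.05. The libraries held 25991114 to 43034551 reads on genes. Cort itself lay between 2.61 and 5.68 RPKM in the 6 Cort+/+ libraries and at or below 0.136 RPKM in the 8 Cort-/- libraries, so each library matched its labelled genotype. Brain markers were present in all groups (neuronal markers summed to 1660 to 2260 RPKM). The 7 markers of microglia and macrophages summed to 58.9 to 67.6 RPKM in CL and to 82.9 to 152 RPKM in MCAO libraries, and 6 of the 7 passed the test over both genotypes. The 6 markers of striatal spiny neurons were all lower in MCAO over both genotypes, with sums of 324 to 372 RPKM in CL and 163 to 309 RPKM in MCAO libraries. Of the endothelial markers, 2 of 6 were higher, with sums of 26.0 to 37.1 RPKM in CL and 36.4 to 51.5 RPKM in MCAO libraries. The 7 astrocyte markers summed to 552 to 664 RPKM in CL and 633 to 825 RPKM in MCAO libraries, and 3 of them were higher, with Gfap at a log2FC of 1.84. Their median log2FC was 0.02, however, since Slc1a2 (-0.17), Slc1a3 (-0.09), S100b (-0.03) and Gja1 (0.02) did not pass. Of the other marker lists, 1 of 5 T cell genes (Cd4) was lower, and 0 of 7 neuronal, 0 of 6 neutrophil, 0 of 5 choroid plexus and 0 of 5 red blood cell genes passed. Cd4 averaged 4.09 RPKM in Cort+/+ CL and 3.59 RPKM in Cort-/- CL. The lowest T cell genes there averaged 0 (Cd3g) and 0.00309 RPKM (Cd8a), so the fall of Cd4 is no measure of T cells. The part of these shifts in the results that follow was not tested.

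The sequences just upstream of the start sites of Hspb1, Bag3 and Hspb8, the members that passed the test over both genotypes, and of the inducible HSP70 pair Hspa1a and Hspa1b are shown here, because HSF1 binds heat shock elements made of inverted GAA units in such regions. Each run is the 250 bases before the annotated start on the strand of the gene, 5′ to 3′, read from GRCm39 with GENCODE M39 starts, and capitals mark every match to GAANNTTC or TTCNNGAA (2 units facing each other or facing away, both equal to their own reverse complement).

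Hspb1 (chr5:135916510-135916759, plus strand): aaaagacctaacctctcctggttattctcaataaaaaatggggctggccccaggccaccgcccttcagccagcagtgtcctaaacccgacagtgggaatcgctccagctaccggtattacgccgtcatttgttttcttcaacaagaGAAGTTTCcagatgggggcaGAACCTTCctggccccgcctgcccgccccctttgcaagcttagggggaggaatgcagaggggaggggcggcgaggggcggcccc

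Bag3 (chr7:128125033-128125282, plus strand): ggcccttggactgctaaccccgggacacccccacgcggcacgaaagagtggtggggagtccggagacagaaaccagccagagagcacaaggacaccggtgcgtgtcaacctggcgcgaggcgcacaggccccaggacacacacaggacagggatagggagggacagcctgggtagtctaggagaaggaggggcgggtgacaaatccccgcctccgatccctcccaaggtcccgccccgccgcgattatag

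Hspb8 (chr5:116561085-116561334, minus strand): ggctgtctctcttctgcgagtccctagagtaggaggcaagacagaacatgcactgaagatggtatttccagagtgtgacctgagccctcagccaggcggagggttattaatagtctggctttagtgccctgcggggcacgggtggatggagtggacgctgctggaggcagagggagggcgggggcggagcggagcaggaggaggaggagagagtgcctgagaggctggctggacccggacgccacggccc

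Hspa1a (chr17:35191133-35191382, minus strand): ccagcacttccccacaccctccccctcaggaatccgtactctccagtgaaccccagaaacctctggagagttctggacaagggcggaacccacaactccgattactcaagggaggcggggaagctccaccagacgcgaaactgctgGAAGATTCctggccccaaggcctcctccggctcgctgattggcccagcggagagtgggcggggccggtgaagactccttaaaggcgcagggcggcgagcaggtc

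Hspa1b (chr17:35178215-35178464, minus strand): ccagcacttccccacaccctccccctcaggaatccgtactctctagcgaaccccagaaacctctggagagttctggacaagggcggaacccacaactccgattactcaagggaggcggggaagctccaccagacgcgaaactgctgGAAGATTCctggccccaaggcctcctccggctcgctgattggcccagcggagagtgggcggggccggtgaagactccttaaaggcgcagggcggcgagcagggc

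The Hspb1 window held GAANNTTC at 2 places, from -104 to -97 and from -84 to -77 relative to the start site. The windows of Hspa1a and Hspa1b differed at 3 of 250 bases and held it once each, also from -104 to -97, and Cryab held it from -39 to -32. Bag3 and Hspb8 held neither motif in these windows. GAANNTTC thus occurred in 4 of the 10 windows, among them the near-identical windows of Hspa1a and Hspa1b, and in 6.33% of the 21757 windows of all protein-coding genes. TTCNNGAA occurred in the window of Hsph1 and in 6.79% of all windows, and the 3-unit TTCNNGAANNTTC or its reverse complement GAANNTTCNNGAA, which contain both shorter motifs, in no member's window and in 0.349% of all windows. Of the windows of 73 other chaperone genes, 6 held GAANNTTC, 5 held TTCNNGAA and 2 held the 3-unit form. A match is a description of the letters, and elements outside these windows or with other letters were not searched for.

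The members called between the hemispheres were a pair of small heat shock proteins and their partner BAG3. Hspb1, Bag3 and Hspb8 rose over both genotypes, by 2.53-fold, 1.55-fold and 1.46-fold. Within a genotype, Bag3 in Cort-/- mice was the member that passed the test.

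Hspb1 (chr5:135916760-135918417, plus strand, ENSMUSG00000004951) encodes HSP27, which caps actin filaments and holds unfolded proteins. It stood at 3.90, 4.63 and 3.38 RPKM in the Cort+/+ CL libraries and at 9.36, 13.3 and 4.86 RPKM in the MCAO libraries 2, 3 and 4. The Cort-/- libraries had 4.08, 3.30 and 3.59 RPKM in CL and 13.0, 8.12, 5.80, 26.9 and 10.6 RPKM in MCAO. All 8 MCAO libraries lay above all 6 CL libraries, but they spread widely, from just above the CL range in Cort+/+ MCAO replicate 4 to 26.9 RPKM in Cort-/- MCAO replicate 4. The means were 3.97 ± 0.627 and 9.18 ± 4.24 RPKM (SD, n = 3 and 3) in Cort+/+ and 3.66 ± 0.395 and 12.9 ± 8.29 RPKM (SD, n = 3 and 5) in Cort-/- mice. The log2FC was 1.09 (SE 0.45, limma adjusted p = 0.570) in Cort+/+ and 1.59 (SE 0.40, limma adjusted p = 0.0726) in Cort-/- mice. Over both genotypes it was 1.34 (SE 0.30, 95% interval 0.68 to 2.00, limma adjusted p = 0.0287), the largest change of the 10 genes. Leaving out Cort+/+ MCAO replicate 3 raised the adjusted p over both genotypes to 0.0846, and it lay above the threshold in 9 of the 14 fits that left out a library, those without any 1 of the 6 CL libraries, Cort+/+ MCAO replicates 2 or 3 or Cort-/- MCAO replicate 1. In Cort-/- mice Hspb1 passed in 1 of these 14 fits, without MCAO replicate 3 (1.83, limma adjusted p = 0.0241). Without Cort-/- CL replicate 3 the limma adjusted p in these mice was 0.205.

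Bag3 (chr7:128125283-128148705, plus strand, ENSMUSG00000030847), which links HSP70 to small heat shock proteins and to autophagy, had similar CL levels and a tighter spread. It stood at 2.98 to 3.50 RPKM in the 3 Cort+/+ CL libraries and at 4.98, 5.55 and 4.06 RPKM in Cort+/+ MCAO libraries. The Cort-/- libraries held 3.46, 3.27 and 3.17 RPKM in CL and 5.78, 4.96, 4.18, 6.19 and 5.63 RPKM in MCAO. The groups did not overlap in either genotype, and every MCAO library was above every CL library of both. The log2FC was 0.60 (SE 0.14, limma adjusted p = 0.212) in Cort+/+, 0.67 (SE 0.12, limma adjusted p = 0.0216) in Cort-/- mice and 0.63 (SE 0.09, limma adjusted p = 0.00352) over both. Over both genotypes Bag3 passed in all 14 fits that left out a library, whereas in Cort-/- mice alone it passed in 8 of 14. That call was lost without any 1 of the 3 Cort-/- CL libraries (adjusted p up to 0.0957) or without Cort-/- MCAO replicates 1, 4 or 5.

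Hspb8 (chr5:116546409-116561084, minus strand, ENSMUSG00000041548) encodes HSP22, the small heat shock protein that binds BAG3 in chaperone-assisted autophagy. It stood at 10.2, 8.06 and 7.89 RPKM in Cort+/+ CL and at 11.7, 13.5 and 10.1 RPKM in Cort+/+ MCAO libraries. Its Cort-/- levels were 7.30, 10.1 and 8.33 RPKM in CL and 16.6, 12.0, 10.3, 16.7 and 13.0 RPKM in MCAO. The Cort+/+ groups touched, since MCAO replicate 4 lay just under the highest CL library, and the Cort-/- groups did not overlap. The log2FC was 0.43 (SE 0.19, limma adjusted p = 0.590) in Cort+/+, 0.66 (SE 0.17, limma adjusted p = 0.0699) in Cort-/- mice and 0.54 (SE 0.12, limma adjusted p = 0.0302) over both. It passed over both genotypes in 8 of the 14 fits that left out a library, with an adjusted p of 0.0899 without Cort+/+ MCAO replicate 3, and was also lost without Cort+/+ CL replicates 2 or 3, Cort+/+ MCAO replicate 2 or Cort-/- CL replicates 1 or 3. In Cort-/- mice it passed in 1 of these 14 fits, without MCAO replicate 3 (0.76, limma adjusted p = 0.0222). Without Cort-/- CL replicate 1 the limma adjusted p in these mice was 0.278.

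Cryab (chr9:50651859-50668567, plus strand, ENSMUSG00000032060) encodes alphaB-crystallin, a small heat shock protein abundant in oligodendrocytes and reactive astrocytes, and was the most abundant of the small heat shock proteins in every library. Its levels were 40.8, 67.8 and 60.5 RPKM in Cort+/+ CL and 81.2, 61.5 and 70.3 RPKM in Cort+/+ MCAO libraries. The Cort-/- levels were 58.8, 37.4 and 59.4 RPKM in CL and 80.7, 76.9, 75.5, 63.1 and 77.0 RPKM in MCAO. The Cort-/- groups did not overlap, while Cort+/+ MCAO replicate 3 lay below Cort+/+ CL replicate 2. The log2FC over both genotypes was 0.45 (SE 0.13, 95% interval 0.17 to 0.74) and missed the threshold (limma adjusted p = 0.0891), although limma voom on the reads recovered from RPKM gave an adjusted p of 0.0268. The 7 oligodendrocyte markers, of which 0 passed the test, summed to 962 to 1230 RPKM in CL and 969 to 1170 RPKM in MCAO libraries. Hspb2, which lies on the opposite strand and overlaps Cryab, had a mean of 0.659 RPKM, and whether counting used strand is not given in the sources used here.

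**Figure D1:**
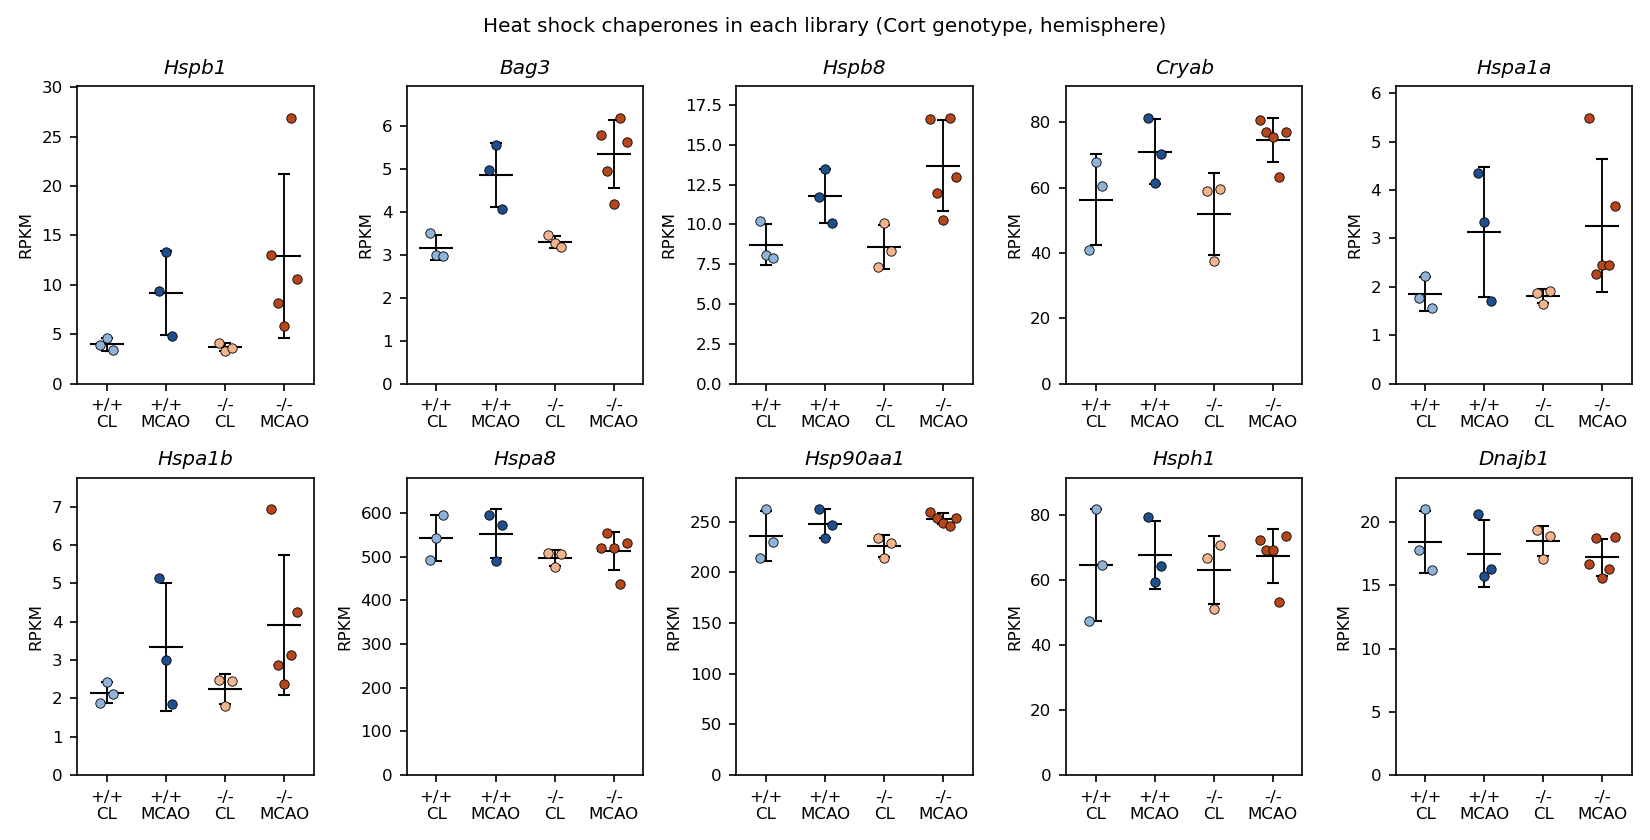
RPKM of each of the 10 genes (vertical axes from 0, a scale for each gene) in the 14 libraries, by Cort genotype and hemisphere; points are libraries, and the line and bars are the mean and SD of the group (n = 3, 3, 3 and 5). All 8 MCAO libraries lie above all 6 CL libraries for Hspb1 and Bag3, whereas the groups overlap for Hspa8, Hsph1 and Dnajb1.

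The inducible HSP70 genes Hspa1a and Hspa1b were low in CL hemispheres and higher in some MCAO libraries (up to 5.49 and 6.93 RPKM), and neither passed the test. They are intronless neighbours on chromosome 17 (Hspa1a, chr17:35188166-35191132, ENSMUSG00000091971; Hspa1b, chr17:35175412-35178214, ENSMUSG00000090877, both on the minus strand). Of all 100-base windows of their transcripts, 47.1% of those of Hspa1a and 49.9% of those of Hspa1b were found letter for letter in the other gene, so the split of reads between them is uncertain and their sum is given too. The overlapping antisense gene Gm20481 had a mean of 0.102 RPKM.

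Hspa1a stood at 1.76, 2.23 and 1.56 RPKM in Cort+/+ CL and at 4.35, 3.34 and 1.70 RPKM in Cort+/+ MCAO libraries. Among Cort-/- mice it was at 1.88, 1.65 and 1.92 RPKM in CL and at 5.49, 2.27, 2.44, 2.44 and 3.67 RPKM in MCAO. Cort+/+ MCAO replicate 4 was within the CL range, and the other 7 MCAO libraries lay above all CL libraries. The log2FC was 0.64 (SE 0.34, limma adjusted p = 0.718) in Cort+/+, 0.73 (SE 0.30, limma adjusted p = 0.315) in Cort-/- mice and 0.69 (SE 0.23, limma adjusted p = 0.143) over both. Hspa1a passed over both genotypes in 1 of the 14 fits that left out a library. That fit lacked Cort+/+ MCAO replicate 4 (0.87, limma adjusted p = 0.0317), while without Cort+/+ MCAO replicate 2 the limma adjusted p was 0.308.

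Hspa1b was highest in the same MCAO libraries as Hspa1a. It stood at 1.88, 2.42 and 2.12 RPKM in Cort+/+ CL and at 5.15, 2.99 and 1.86 RPKM in Cort+/+ MCAO libraries, and at 2.48, 1.80 and 2.45 RPKM in Cort-/- CL and 6.93, 2.87, 2.38, 3.13 and 4.26 RPKM in Cort-/- MCAO libraries. The MCAO replicate 4 of Cort+/+ and the MCAO replicate 3 of Cort-/- mice lay within the CL range. The log2FC over both genotypes was 0.60 (SE 0.25, limma adjusted p = 0.269). Summed, the pair stood at 3.64, 4.66 and 3.69 RPKM in Cort+/+ CL, 9.50, 6.32 and 3.55 RPKM in Cort+/+ MCAO, 4.36, 3.45 and 4.36 RPKM in Cort-/- CL and 12.4, 5.14, 4.81, 5.56 and 7.93 RPKM in Cort-/- MCAO libraries. The sum shows the same libraries at the top and the same Cort+/+ MCAO library within the CL range, which does not depend on how reads were split between both genes. Whether reads that fit both genes were counted at all is not given in the sources used here, and the sum would miss any that were dropped.

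The constitutive HSC70 gene Hspa8 and Hsp90aa1 were by far the most abundant members and made up 78.2 to 84.7% of the summed RPKM of the 10 genes. Hspa8 (chr9:40711630-40731039, plus strand, ENSMUSG00000015656), the HSP70 of unstressed cells, stood at 492, 542 and 596 RPKM in Cort+/+ CL and at 595, 489 and 572 RPKM in Cort+/+ MCAO libraries. The Cort-/- libraries stood at 508, 476 and 506 RPKM in CL and at 520, 553, 520, 438 and 530 RPKM in MCAO. The groups overlapped throughout, with a log2FC over both genotypes of 0.03 and a 95% interval of -0.11 to 0.17 (limma adjusted p = 0.907). The ratio of Hspa8 to Hspa1b ranged from 205 to 281 in CL and from 74.9 to 308 in MCAO libraries.

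Hsp90aa1 (chr12:110656842-110669166, minus strand, ENSMUSG00000021270), the stress-inducible HSP90 of the cytosol, stood at 214, 262 and 230 RPKM in Cort+/+ CL and 262, 234 and 247 RPKM in Cort+/+ MCAO libraries. In Cort-/- mice it stood at 234, 214 and 229 RPKM in CL and at 260, 254, 249, 246 and 254 RPKM in MCAO. The 5 Cort-/- MCAO libraries lay above the 3 CL libraries by a small margin, and the Cort+/+ groups overlapped. The log2FC was 0.08 (SE 0.07) in Cort+/+, 0.16 (SE 0.06) in Cort-/- mice and 0.12 (SE 0.05, 95% interval 0.02 to 0.22, limma adjusted p = 0.232) over both. Its ratio to the constitutive Hsp90ab1 was 0.375 to 0.446 in Cort+/+ CL, 0.409 to 0.427 in Cort+/+ MCAO, 0.382 to 0.41 in Cort-/- CL and 0.413 to 0.435 in Cort-/- MCAO libraries.

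Hsph1 and Dnajb1, partners of the HSP70 cycle, did not pass the test in any comparison. Hsph1 (chr5:149537636-149560156, minus strand, ENSMUSG00000029657), the exchange factor HSP105, stood at 47.4, 81.7 and 64.6 RPKM in Cort+/+ CL and 79.4, 59.3 and 64.3 RPKM in Cort+/+ MCAO libraries, and at 66.8, 51.2 and 70.8 RPKM in Cort-/- CL and 72.3, 69.1, 69.1, 53.1 and 73.6 RPKM in Cort-/- MCAO libraries. Its CL libraries covered the whole range of the MCAO libraries, and the log2FC over both genotypes was 0.10 (SE 0.13, 95% interval -0.18 to 0.37). Dnajb1 (chr8:84334811-84339820, plus strand, ENSMUSG00000005483), the J-domain protein HSP40, stood at 17.8, 21.0 and 16.2 RPKM in Cort+/+ CL and 20.6, 15.7 and 16.3 RPKM in Cort+/+ MCAO libraries, and at 19.4, 17.1 and 18.9 RPKM in Cort-/- CL and 16.7, 18.7, 15.6, 16.3 and 18.8 RPKM in Cort-/- MCAO libraries. Its log2FC over both genotypes was -0.09 (SE 0.08, 95% interval -0.25 to 0.08), the member with a value below 0 in each comparison of hemispheres.

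**Figure D2:**
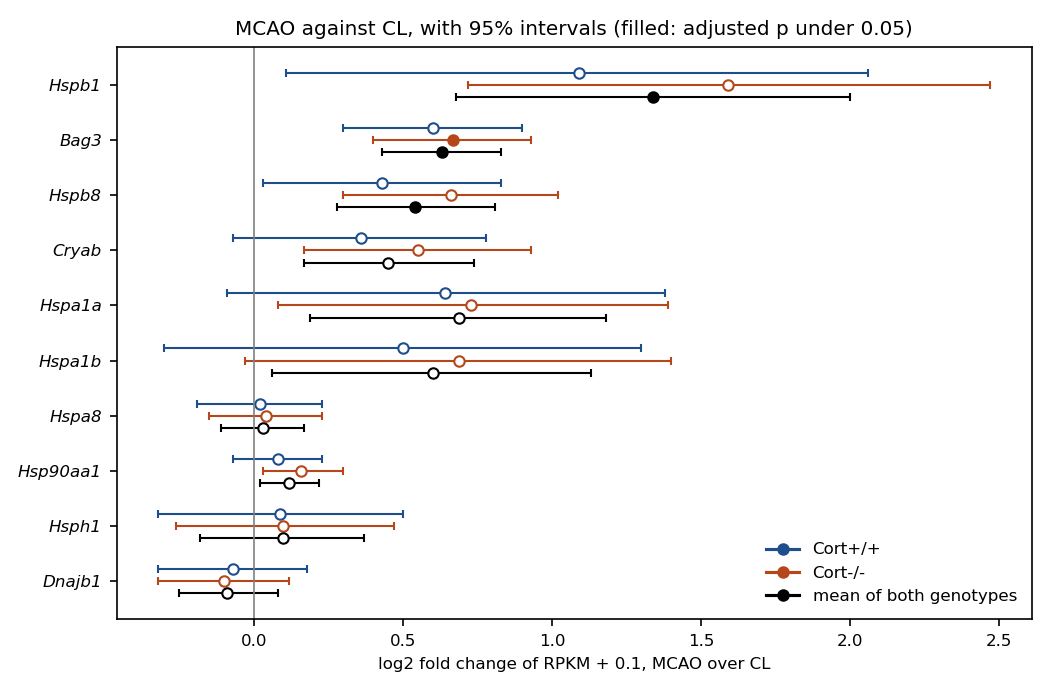
Differences of log2(RPKM + 0.1) between MCAO and CL hemispheres for the 10 genes in Cort+/+ mice, in Cort-/- mice and as the mean of both, with 95% intervals from limma; filled points have an adjusted p under 0.05. Bag3 is filled in Cort-/- mice, and Hspb1 (1.34), Bag3 (0.63) and Hspb8 (0.54) are filled over both genotypes.

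Counted over the list, 0 of the 10 genes passed in Cort+/+ mice, where 0.0108% of all genes did (the unadjusted p was under 0.05 for 3 genes, Hspb1, Bag3 and Hspb8, against 7.87% of all genes, and limma voom called 0, against 0.124%). Among Cort-/- libraries 1 passed, Bag3, where 1.72% of all genes did in either direction and 1.34% upwards in MCAO, and for 6 the unadjusted p was under 0.05, against 12.7% of all genes. Over both genotypes 3 passed, all higher in MCAO, against 3.43% of all genes in either direction and 2.52% higher in MCAO, and for 7 the unadjusted p was under 0.05, against 14.9%. The median log2FC of the 10 genes was 0.39 in Cort+/+, 0.61 in Cort-/- mice and 0.50 over both, with 9 of 10 values above 0 each time, whereas the median over all genes tested was 0.00 in all of them. Without overlap, 2 of 10 (Hspb1 and Bag3) were higher in every Cort+/+ MCAO library, against 5.73% of all genes, and 6 of 10 (Hspa1a, Hspb1, Hsp90aa1, Bag3, Cryab and Hspb8) in every Cort-/- MCAO library, against 4.85%. These shares cover many low genes, whereas every member averaged at least 2.62 RPKM. Of the 15063 genes averaging 1 RPKM or more, limma called 3 in Cort+/+, 614 in Cort-/- (459 higher) and 1213 over both (837 higher). Before adjustment, 1817, 3698 and 4341 fell below 0.05. Higher values without overlap held for 1233 (Cort+/+) and 1333 (Cort-/-). All are larger shares than over all genes, so any excess among the members is smaller at like levels. Together the 10 genes took 0.219 to 0.269% of all reads on genes in CL and 0.239 to 0.292% in MCAO libraries.

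The genotypes were compared within each hemisphere to ask whether the lack of cortistatin alters these genes. No member passed the test between Cort-/- and Cort+/+ mice: 0 of 10 were called in CL, where 0.0152% of all genes were, and 0 of 10 in MCAO, where 0.0174% were. The unadjusted p was under 0.05 for 0 of 10 in CL and in MCAO, against 3.91% and 3.82% of all genes, and voom called 0 in both, against 0.0325% and 0.0260%, shares at which 0 of 10 says little about the members. Over the 10 genes the log2 difference in CL lay between -0.13 (Hspa8) and 0.06 (Bag3 and Hspa1b). In MCAO it lay between -0.11 (Hspa8) and 0.40 (Hspb1), and the 95% interval for Hspb1 was -0.48 to 1.27. The interaction, which tests whether the response to MCAO differed with genotype, passed for 0 of the 10 (0.00217% of all genes). The unadjusted p was under 0.05 for 0 of the 10, against 3.31% of all genes, and voom called 0 of the 10 and 0% of all genes. Hspb1 had the highest interaction, 0.51 (SE 0.61, 95% interval -0.80 to 1.82). For Bag3 the interval was -0.33 to 0.47, and for Hspb8 -0.31 to 0.77, so the call of Bag3 in Cort-/- mice alone does not show that its response differed from that of Cort+/+ mice. For Hspb1 the interval was wide enough to hold differences as large as the response itself.

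Of 74 other genes of the chaperone network, 73 were listed and tested, and most of their log2FC values lay near 0. Their median log2FC was 0.02 in Cort+/+, 0.01 in Cort-/- mice and 0.01 over both. In Cort+/+ mice 0 of 73 passed with limma or voom, against 0.0108% and 0.124% of all genes, shares at which 0 of 73 says little. For 7 the unadjusted p was under 0.05, against 7.87% of all genes. In Cort-/- mice 2 of 73 passed, against 1.72% of all genes. Both were higher in MCAO, Hspb6 (1.07, SE 0.25, limma adjusted p = 0.0495) and Serpinh1 (0.76, SE 0.13, limma adjusted p = 0.0169). Over both genotypes 5 of 73 passed, 4 higher and 1 lower, against 3.43% of all genes in either direction and 2.52% higher in MCAO. Of the 15063 genes averaging 1 RPKM or more, 1213 were called (837 higher), so 5 of 73 says little about the list.

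Among the small heat shock proteins, Hspb6, which encodes HSP20 of muscle and vessel walls, was 4.41 ± 1.36 RPKM in Cort+/+ CL and 6.93 ± 1.59 RPKM in Cort+/+ MCAO libraries (SD, n = 3 each). In Cort-/- mice it was 3.94 ± 0.833 (SD, n = 3) and 8.53 ± 2.45 RPKM (SD, n = 5). It rose over both genotypes by 0.87 (SE 0.19, limma adjusted p = 0.0219), a call lost without Cort+/+ MCAO replicate 3 or Cort-/- CL replicates 1 or 3, and the other 4 tested members of that family did not pass. Serpinh1, the collagen chaperone HSP47 of the endoplasmic reticulum, rose over both genotypes by 0.64 (SE 0.10, limma adjusted p = 0.00450), from 5.36 ± 0.834 to 7.79 ± 1.60 RPKM in Cort+/+ (SD, n = 3 each) and from 5.44 ± 0.660 (SD, n = 3) to 9.29 ± 0.826 RPKM (SD, n = 5) in Cort-/- mice. Of the 6 pericyte and smooth muscle markers, 1 passed, Tagln (1.32 over both genotypes), while Myh11 (-0.27, limma adjusted p = 0.135), Acta2 (-0.14) and Rgs5 (-0.02) had values below 0. The 6 markers summed to 26.6 to 33.3 RPKM in CL and 30.3 to 35.7 RPKM in MCAO libraries, and the part of these markers in these results was not tested.

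The cytosolic chaperonin, a ring that folds actin and tubulin, gave small differences with a tight spread. Its subunit genes Cct3 (0.18, SE 0.03, limma adjusted p = 0.00598) and Cct4 (0.15, SE 0.03, limma adjusted p = 0.00838) rose over both genotypes, and all 10 genes of the cytosolic and mitochondrial chaperonins had values above 0. Cct3, for example, stood at 40.1 to 43.7 RPKM in the 6 CL and at 45.1 to 49.4 RPKM in the 8 MCAO libraries. Dnajb4, a J-domain protein, fell by 0.17 (SE 0.04, limma adjusted p = 0.0332), the only lower call among the 73, which was lost in 9 of the 14 fits without a library. The other HSP70 and HSP110 genes (0 of 10 passed), the HSP90 family and its co-chaperones (0 of 14), and the BAG and ubiquitin partners (0 of 10) held no call over both genotypes. With 3.43% of all genes called, such counts say little about these families. Of the constitutive partners, Hsp90ab1 had a log2FC of 0.04 (SE 0.03), the mitochondrial Hspd1 0.08 (SE 0.05), the endoplasmic reticulum HSP70 Hspa5 0.31 (SE 0.11, limma adjusted p = 0.187) and Hsf1, the gene of the heat shock factor itself, -0.02 (SE 0.08).

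**Figure D3:**
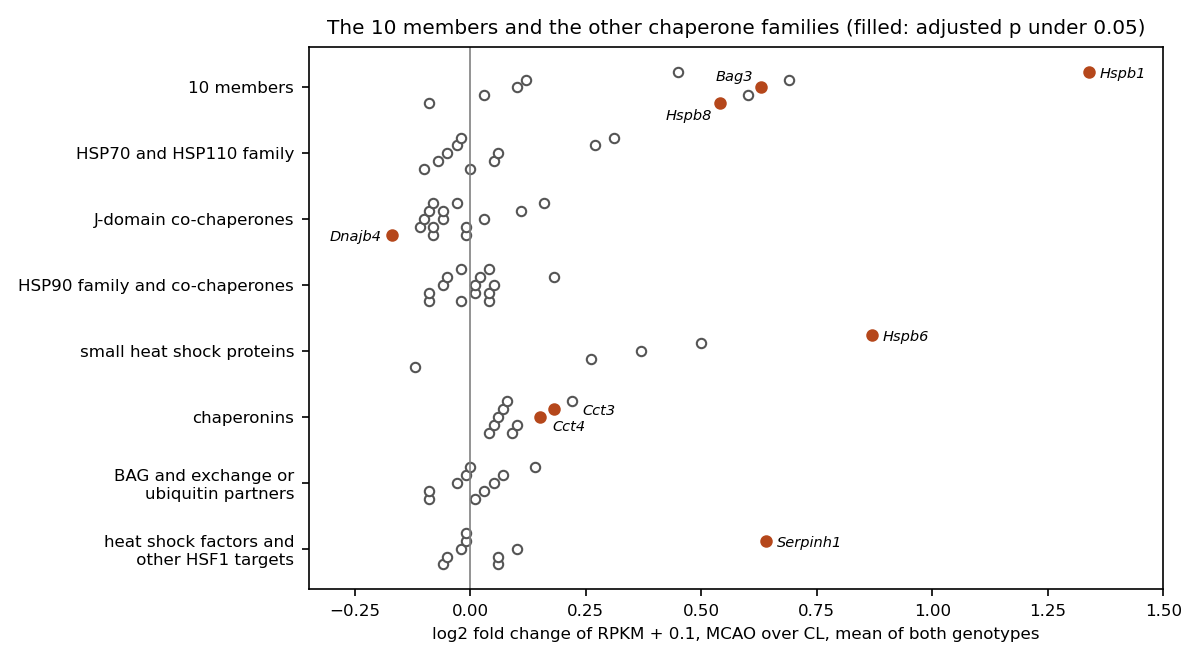
Difference of log2(RPKM + 0.1) between MCAO and CL hemispheres as the mean of both genotypes, for the 10 genes and for 73 other chaperone genes by family; each point is a gene, and filled, named points have an adjusted p under 0.05. Most families lie close to 0, and the small heat shock proteins reach furthest to the right outside the 10 genes.

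Within a group, the 10 genes did not vary as 1 block. Each library was set against the mean of its own group on the log2 scale, and these deviations were compared between genes over the 14 libraries (Pearson's r, as a description, since libraries of a group share a mean). Hsph1 and Cryab deviated together (0.95), as did Hsph1 and Hsp90aa1 (0.91) and Hsp90aa1 and Cryab (0.87). Hspb1 and Bag3 (0.87), Bag3 and Hspb8 (0.81) and Hspb1 and Hspb8 (0.71) formed another set, and Hspa1a and Hspa1b (0.94), which share sequence, made a pair. Between the first set and the second, r ranged from -0.59 (Cryab and Hspb8) to 0.00 (Hspb1 and Hsp90aa1). Hspa8 went with the first set (0.53 to 0.72) and against the second (-0.67 with Hspb8, -0.65 with Hspb1 and -0.58 with Bag3), while Hspa1a and Hspa1b had values of 0.31 to 0.52 with the members of both.

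Cort-/- MCAO replicate 4 had the highest Hspb1 (26.9 RPKM), Bag3 (6.19 RPKM) and Hspb8 (16.7 RPKM) of the 14 libraries and the lowest Hspa8 (438 RPKM). It also had the highest sum of endothelial markers, 51.5 RPKM, and of neutrophil markers, 15.5 RPKM, where the other Cort-/- MCAO libraries had endothelial sums of 36.4 to 43.0 RPKM. Without it, the log2FC of Hspb1 in Cort-/- mice was 1.28 in place of 1.59, and Bag3 was no longer called in Cort-/- mice. In Cort-/- MCAO replicate 1 Hspa1a, Hspa1b and the microglial sum (152 RPKM) were highest and the striatal sum (163 RPKM) lowest. Cort+/+ MCAO replicate 4 had the lowest Hspb1, Bag3, Hspb8, Hspa1a and Hspa1b of the MCAO libraries, together with the lowest microglial sum of these (82.9 RPKM) and the highest striatal sum (309 RPKM). The CL libraries varied as well: Cort+/+ CL replicate 1 and Cort-/- CL replicate 2 lay 0.43 and 0.44 below their group means for Cryab and 0.24 above them for Hspb8. The part of these marker levels in the values of the 10 genes was not tested.

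**Figure D4:**
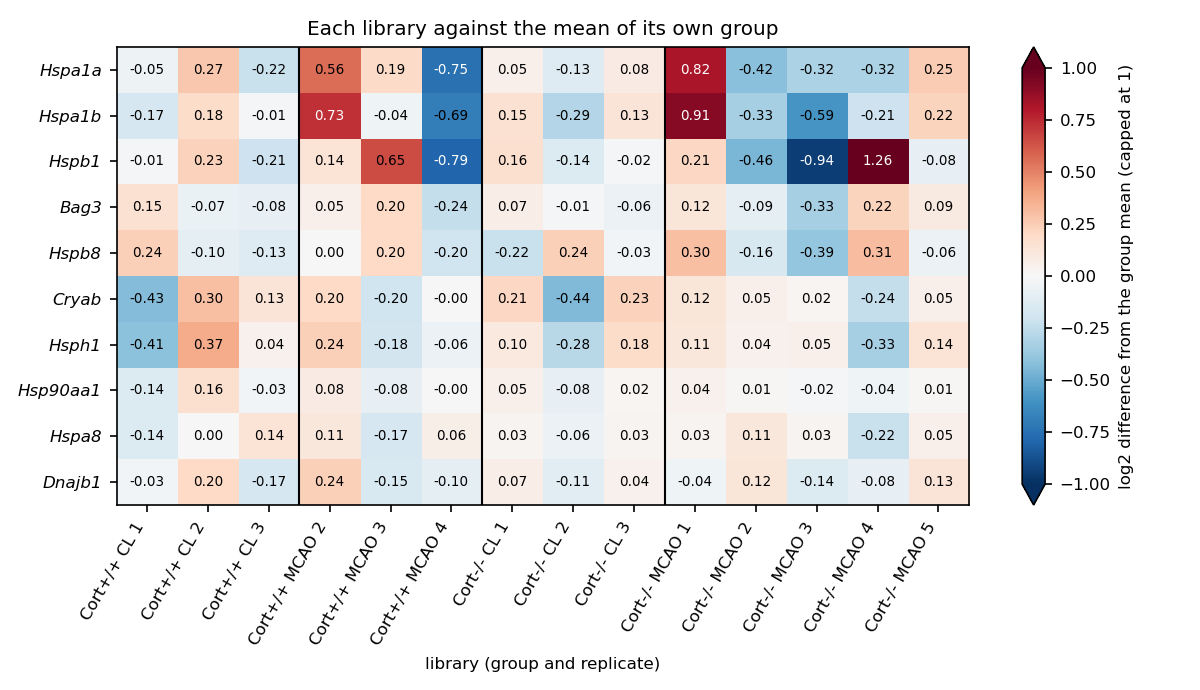
Difference of each library (horizontal axis, groups divided by lines) from the mean of its own group on the log2 scale for the 10 genes (colour and printed value, colour capped at 1). Hspb1, Bag3 and Hspb8 are lowest in Cort-/- MCAO replicate 3 and high in replicate 4, where Cryab (-0.24), Hsph1 (-0.33) and Hspa8 (-0.22) are low.

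The genes with the pattern most like that of Hspb1 over the 14 libraries, among 15062 genes that averaged 1 RPKM or more, were Tlr3 (Pearson's r 0.973), Mtmr11 (0.965), Cnn3 (0.964), Ptges (0.963) and Itpripl2 (0.963). Tlr3 is a receptor for double-stranded RNA, Cnn3 an actin-binding protein and Ptges a prostaglandin synthase. For Hspb1, 55.4% of the 100-base windows of its transcript also occur in the pseudogene Hsp25-ps1, which was listed at 0 to 0.292 RPKM. Most like Hspa1b was its copy Hspa1a (0.953), then the unnamed gene ENSMUSG00000134226 (0.921), Eif3b (0.920), Hmgn1 (0.918) and Lhfpl2 (0.896). These likenesses include the difference between hemispheres that all of these genes may share. Hspa8 and Hsp90aa1 also share windows with pseudogenes (62.8% and 44.1%), which were listed at no more than 3.44 RPKM except Gm72559, a copy of Hsp90aa1 whose level was not analysed here, while Bag3, Cryab, Hspb8, Hsph1 and Dnajb1 share none.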

How the data were processed

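The authors aligned 100 bp paired-end reads from stranded mRNA libraries to GRCm39 (GENCODE M28) with reanalyzerGSE 3.0.0 and deposited a table of RPKM with a column for each of 14 libraries. The aligner, the gene lengths, the scaling and whether counting used strand are not given in the sources used here. RPKM values were turned back into reads by finding the library sizes and gene lengths that make them whole, which held for all 495656 values above 0 (tolerance 0.001 reads). Depth was 25991114 to 43034551 reads on genes.

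A gene was kept where 2 or more libraries were above 0 (46102 of 46904). With limma 3.58.1 (R 4.3.3), log2(RPKM + 0.1) was modelled as 1 model of the 4 groups, with variance trend and Benjamini-Hochberg adjustment, so fold changes of low genes are understated. Hemispheres were compared in each genotype and over both (the mean of both differences), genotypes in each hemisphere, and the difference of responses as an interaction. A member was called at an adjusted p under 0.05. Each fit was repeated without each library, with other pseudocounts, filters, scalings, weights and a replicate block, and with limma voom on the recovered reads. In simulated data limma recovered 43, 67 and 95 of 100 genes changed 2-fold in Cort+/+ mice, Cort-/- mice and over both, among 44431 genes, and 99, 99 and 100 of 100 changed 4-fold. In the same order, it also called 15, 13 and 7 genes that had not been changed.

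The members, the lists of other chaperones and of markers and the tests were chosen with earlier results of these data known. All members are named. Of the other chaperones, those are named that passed in any comparison with a mean of at least 1 RPKM, plus Hsp90ab1, Hspa5, Hspd1 and Hsf1, and for Hspb1 and Hspa1b the 5 most correlated genes. Positions and start sites come from GENCODE M39, sequences from GRCm39, and shared sequence from identical 100-base windows of transcripts. Python 3.11.15 with numpy 2.4.6, pandas 2.3.3, scipy 1.17.1 and matplotlib 3.10.9 was used.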

Additional observations from a re-analysis of the deposited data

Results flagged for a closer look

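Among the 5 Cort-/- MCAO libraries, replicate 4 lay far below the others for Hsph1 (53.1 RPKM, where the next was 69.1 RPKM) and for Hspa8 (438 RPKM, where the next was 520 RPKM). The gap to the nearest library took 0.779 of the whole range for Hsph1 and 0.710 for Hspa8, at or past Dixon's 95% limit for 5 samples, 0.71. Chance marks about 1 in 20 groups, and all 10 genes were examined in that group. Cryab (63.1 RPKM, ratio 0.707) fell just short of the limit. The same library had the highest Hspb1, at 26.9 RPKM (ratio 0.658).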

How the results depend on the processing

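In Cort-/- mice the number of the 10 members called between hemispheres, 1, became 3 with a filter on a mean of at least 0.5 RPKM, 2 with array weights, 2 with voom on the recovered reads and 0 with the Cort-/- groups fitted alone, and 0 to 3 without single libraries. Over both genotypes it was 3, became 4 with voom and 4 with the filter of 0.5 RPKM (Cryab was added in both), and was 1 to 4 without single libraries. Bag3 was called there in all 24 alternatives, Hspb1 in 15 and Hspb8 in 18. In Cort+/+ mice it was 0 under every alternative, and so were the counts between genotypes and for the interaction. Of the 73 other chaperones, the 2 called in Cort-/- mice became 1 with a pseudocount of 1, 1 without a filter, 7 with the filter of 0.5 RPKM, 4 with quantile normalization, 1 with these groups alone, 1 with a replicate block and 0 to 2 without single libraries. The 5 called over both genotypes became 10 with the filter of 0.5 RPKM and 8 with quantile normalization, and 3 to 7 without single libraries. The filter left fewer genes tested, and the fits of single contrasts or without a library had fewer samples. The cause of the shifts was not tested.

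The direction of small changes turned when a library was left out. The log2FC ranged in Cort+/+ mice from -0.19 to 0.03 for Dnajb1, from -0.11 to 0.28 for Hsph1 and from -0.05 to 0.11 for Hspa8. It ranged in Cort-/- mice from -0.04 to 0.20 for Hsph1, and over both genotypes from -0.00 to 0.19 for Hsph1 and from -0.00 to 0.07 for Hspa8. No other member changed its sign, and no scaling moved the median of the genes averaging 1 RPKM or more by 0.1.

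Counts over all genes moved more. The 5 genes called between hemispheres in Cort+/+ mice became 57 with voom, 28 with the filter of 0.5 RPKM and 2 with a pseudocount of 1, and the 792 of Cort-/- mice became 1294 with voom, 1290 with the filter and 86 with these groups alone. Between genotypes, the 7 called in CL became 15 with voom and 90 with these groups alone, and the 8 in MCAO became 12 and 15.

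The labels do not say whether same-numbered CL and MCAO libraries come from the same animal, and the correlations given next cannot settle it. Deviations of same-numbered CL and MCAO libraries correlated at 0.32 and -0.14 in Cort+/+ and at -0.06, -0.24 and 0.03 in Cort-/- mice, and the replicate block, with a consensus correlation of -0.005, changed no call of a member. With all groups already in the comparison, a fit of the compared groups alone does not exist for the mean of both genotypes and for the interaction. In simulated data, with the same spread for all genes, 43 of 100 genes changed 2-fold were recovered in Cort+/+ and 67 of 100 in Cort-/- mice. Smaller changes and wider spreads were not simulated, so values that did not pass are no sign of absence.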
